A study of Mus musculus with 10 samples.

Results

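The transcripts described here are those of 10 genes of epidermal growth factor (EGF) and hepatocyte growth factor (HGF) signalling, taken by symbol from a liver RNA-seq table of 55291 genes. They are the EGF-family ligands Areg, Ereg, Hbegf, Tgfa and Btc, the receptors Egfr, Erbb2 and Erbb3, and Hgf with its receptor Met. All 10 passed the filter on low counts, which kept 17015 genes. The livers came from 10 female mice, aged 16 to 20 weeks, that carry a Cas9 gene silenced by a lox-flanked stop cassette. Every mouse received an AAV8 virus that carries a guide RNA and a Cre gene under the Tbg promoter, which is active in hepatocytes. The guide was either a non-targeting control (NTC) or one against Bap1 (sgBap1), the gene of a deubiquitinase. After 10 days the mice were injected with carbon tetrachloride (CCl4) diluted 1:9 in olive oil, or with olive oil alone (Veh), at 10 µL per g of body weight. The right lobe was taken for RNA 48 h later from 2 mice each of the groups NTC-Veh and sgBap1-Veh, and 3 mice each of NTC-CCl4 and sgBap1-CCl4.

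EGF-family ligands are made as membrane-anchored precursors that proteases cut free, and they bind the ErbB receptor tyrosine kinases, of which Egfr and Erbb3 are made by hepatocytes. The ligands Areg, Ereg, Hbegf, Tgfa and Btc all bind EGFR, Ereg, Hbegf and Btc also bind ERBB4, and ERBB2 has no ligand of its own and acts as a partner in receptor pairs. HGF is secreted as an inactive chain, mainly by stellate and endothelial cells of the liver, and after cleavage it binds MET on hepatocytes, so that both pathways drive RAS, ERK and AKT signalling in the regenerating liver.

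The deposited values are estimated counts, which summed to 3.30e+07 to 5.22e+07 per liver, and 3 counts, the floor used here, correspond to 0.0511 to 0.112 counts per 1000000 (CPM) of the TMM-normalized library. CPM are given as mean ± SD over livers. Adjusted p-values that name no other tool are from the two-sided form of edgeR's quasi-likelihood test on all 17015 genes with Benjamini-Hochberg adjustment, and a gene is called changed at an adjusted p under 0.05. SE is the standard error of a log2 fold change, taken as its absolute value divided by the square root of the F statistic of edgeR's test. Bap1 measured 34.8 and 34.8 CPM in the NTC-Veh livers, 17.5 and 19.5 in sgBap1-Veh, 30.1, 31.5 and 29.5 in NTC-CCl4, and 17.0, 21.8 and 19.1 in sgBap1-CCl4. Every sgBap1 liver lay below every NTC liver. Bap1 fell by 0.91 on the log2 scale in sgBap1-Veh against NTC-Veh livers (SE 0.12, adjusted p = 0.0172) and by 0.65 in sgBap1-CCl4 against NTC-CCl4 livers (SE 0.09, adjusted p = 0.0307). Bap1 RNA was thus reduced but present, and the RNA is of whole liver. In every liver the 8 hepatocyte markers summed to at least 64846 CPM. Replicate 2 of the sgBap1-CCl4 group stood apart, with 36.4 CPM of Adipoq and 34.5 CPM of Plin1, transcripts of fat cells. The other 9 livers had at most 0.0425 CPM of Adipoq and 0.0188 CPM of Plin1, and fold changes of the 10 genes whose call it decides, or that it moves by over 1.5 times, are also given without it.

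The promoters of 7 of the 10 genes were taken from RefSeq (GRCm38.p6), each as 250 bases before to 50 after the annotated start. They were searched on both strands for the cAMP response element (TGACGTCA), the AP-1 site (TGANTCA), the STAT site (TTCNNNGAA) and the TATA box (TATAAA). None of the 4 motifs holds another within its letters. The promoters of Areg, Hgf and Met are shown, those of the ligand with the lowest level in vehicle livers, of the HGF gene and of its receptor. They lie at chr5:91139349-91139648 (+ strand), chr5:16553245-16553544 (+ strand) and chr6:17463707-17464006 (+ strand), and matched motifs are in capitals.
Areg: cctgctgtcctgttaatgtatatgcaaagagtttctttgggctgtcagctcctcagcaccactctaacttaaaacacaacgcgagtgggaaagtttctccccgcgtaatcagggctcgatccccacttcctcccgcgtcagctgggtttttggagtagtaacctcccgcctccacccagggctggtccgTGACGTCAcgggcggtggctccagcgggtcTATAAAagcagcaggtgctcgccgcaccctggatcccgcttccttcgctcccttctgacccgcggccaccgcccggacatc
Hgf: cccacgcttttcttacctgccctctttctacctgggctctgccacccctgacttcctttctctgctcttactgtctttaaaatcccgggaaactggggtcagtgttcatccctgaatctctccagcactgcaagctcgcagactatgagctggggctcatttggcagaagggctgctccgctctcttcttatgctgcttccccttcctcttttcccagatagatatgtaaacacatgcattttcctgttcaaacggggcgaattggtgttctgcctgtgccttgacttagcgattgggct
Met: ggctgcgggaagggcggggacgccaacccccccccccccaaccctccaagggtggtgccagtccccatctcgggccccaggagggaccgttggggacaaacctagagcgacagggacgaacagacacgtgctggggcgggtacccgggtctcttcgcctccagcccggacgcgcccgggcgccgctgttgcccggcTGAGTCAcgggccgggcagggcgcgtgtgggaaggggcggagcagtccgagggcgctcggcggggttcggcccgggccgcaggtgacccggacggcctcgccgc
The Areg promoter held a cAMP response element that begins 61 bases before the start and a TATA box 31 bases before it. The Met promoter held an AP-1 site 54 bases before the start. RefSeq gives 2 entries for Hgf, of which the first is printed. Both Hgf promoters, and those of Tgfa, Btc, Egfr and Erbb2, held none of the 4 motifs in this window. Among 32851 promoters of 300 bases, 1.79% held the cAMP response element, 7.81% the AP-1 site, 8.3% the STAT site and 13.6% the TATA box. These are matches of letters, not measured binding.

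In livers with the control guide, CCl4 changed 9 of the 10 transcripts, 7 higher and 2 lower. The 5 EGF-family ligands, Hgf and Erbb2 rose, and Erbb3 and Met fell, while Egfr was not called. Areg passed the filter on low counts only through the CCl4 livers, so with CCl4 it could only be called higher. Of all 17015 genes, 53.8% were called in this comparison, 27.5% higher and 26.3% lower. DESeq2's Wald test called 53.8% of the 16987 genes to which it gave an adjusted p, among them all 10 of these genes. The median log2 fold change was 1.32 over the 10 genes and 0.03 over all genes. In sgBap1 livers the same 7 genes rose and the same 2 fell, against a background of 56.7% called, 29.0% higher and 27.7% lower, with medians of 1.25 and 0.04. DESeq2 called 8 of them there, all but Egfr and Erbb2. The livers of the groups did not overlap for the 9 called genes in either guide, and the same held for 71.7% of all genes in NTC and 72.2% in sgBap1 livers. Both medians stayed at these values with Areg, which is at the floor in vehicle livers, set to its level over a floor of 3 counts (9.28-fold in NTC and 11.7-fold in sgBap1 livers). In whole-liver RNA, fewer cells of a type and less RNA per cell cannot be told apart.

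**Figure D1:**
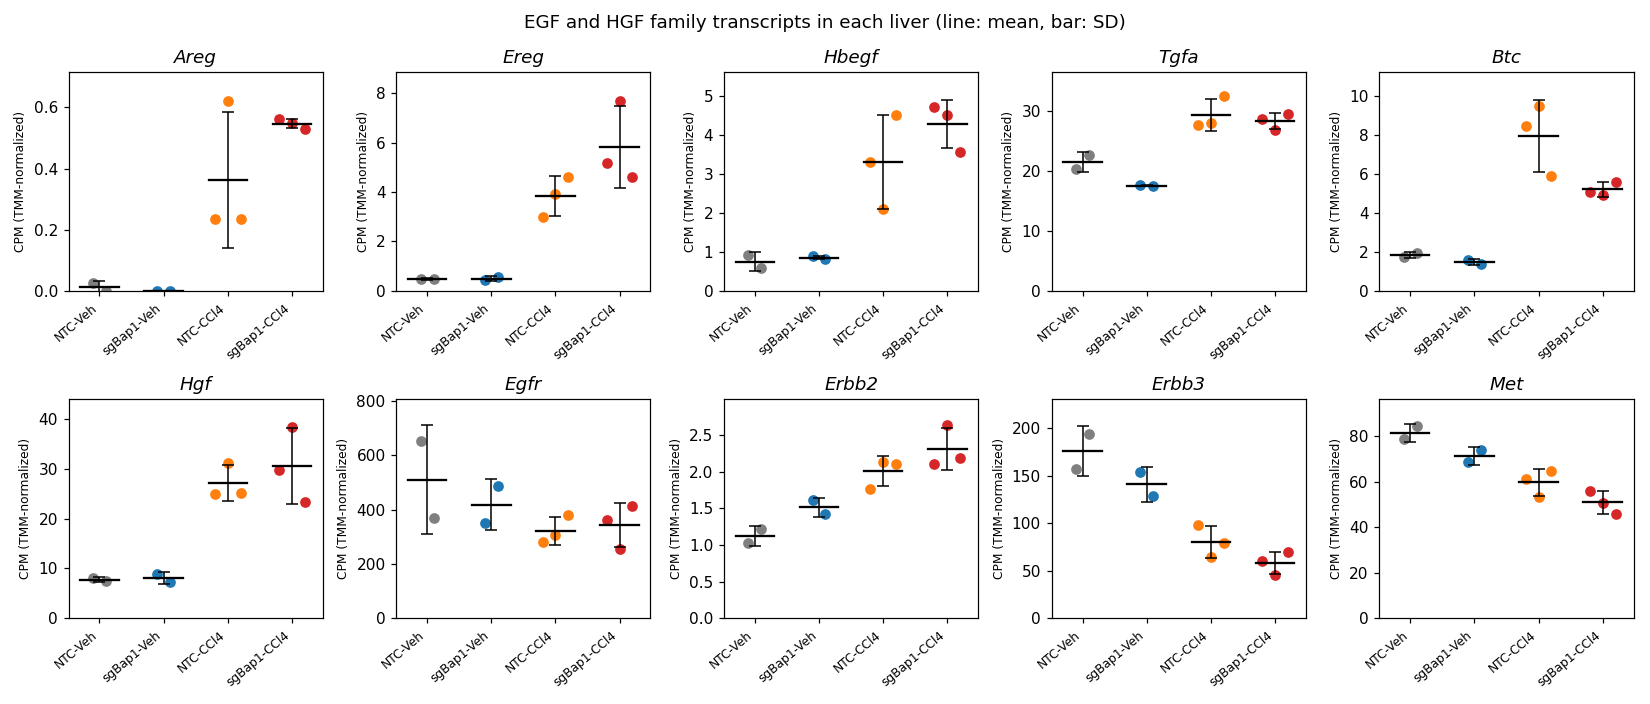
CPM of the 10 transcripts in each of the 10 livers (y axis, starting at 0) by group (x axis); points are livers, lines are means and bars are SD. The 6 CCl4 livers lie above the 4 vehicle livers for the 5 EGF-family ligands, Hgf and Erbb2 and below them for Erbb3 and Met, and the groups of Egfr overlap.

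Amphiregulin (Areg, ENSMUSG00000029378.5, chromosome 5, 91139599 to 91148432, + strand) is a low-affinity EGFR ligand. It had 1 and 0 counts in the NTC-Veh livers, 0 and 0 in sgBap1-Veh, 11, 33 and 9 in NTC-CCl4 livers, and 33, 32 and 25 in sgBap1-CCl4 livers. The transcript was thus at or under the floor in every vehicle liver and above it in all 6 CCl4 livers. It passed the filter on low counts only through the CCl4 livers, so its calls with CCl4 could only be higher. In NTC livers the 53 counts with CCl4 against 1 with vehicle gave a ratio of 27.9, with a 95% counting interval of 4.79 to 1121 (adjusted p = 0.00295). In sgBap1 livers the level with CCl4 was at least 11.7-fold higher than the floor of 3 counts over the vehicle group (adjusted p = 0.000765), and the lower 95% counting limit of 90 against 0 counts was 9.30. The interval and the floor cover counting error only. In CPM, the NTC-CCl4 livers had 0.235, 0.620 and 0.234 and the sgBap1-CCl4 livers 0.562, 0.548 and 0.531. The highest of the 6 was an NTC-CCl4 liver, and the groups overlapped.

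Epiregulin (Ereg, ENSMUSG00000029377.5, chromosome 5, 91074622 to 91093646, + strand) lies next to Areg and overlaps Gm19610 on the other strand. It measured 0.463 and 0.499 CPM in NTC-Veh livers, 0.431 and 0.561 in sgBap1-Veh, 2.98, 3.94 and 4.61 in NTC-CCl4 livers, and 5.19, 7.69 and 4.59 in sgBap1-CCl4 livers. Every CCl4 liver lay above every vehicle liver. The log2 fold change with CCl4 was 2.99 in NTC (SE 0.32, adjusted p = 3.19e-05), a fold of 7.95. In sgBap1 livers it was 3.56 (SE 0.33, adjusted p = 1.17e-05), a fold of 11.8. The highest value was that of the liver with fat-cell transcripts, and without it the log2 fold change in sgBap1 livers was 3.31.

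Betacellulin (Btc, ENSMUSG00000082361.6, chromosome 5, 91357261 to 91402994, - strand) is the third ligand gene of this stretch of chromosome 5. It measured 1.74 and 1.97 CPM in NTC-Veh livers, 1.59 and 1.38 in sgBap1-Veh, 8.44, 9.49 and 5.88 in NTC-CCl4 livers, and 5.09, 4.91 and 5.61 in sgBap1-CCl4 livers. All 3 NTC-CCl4 livers lay above all 3 sgBap1-CCl4 livers, and all 6 lay above the vehicle livers. CCl4 raised it by a log2 fold change of 2.10 in NTC (SE 0.22, adjusted p = 2.86e-05) and 1.80 in sgBap1 livers (SE 0.23, adjusted p = 8.31e-05).

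Heparin-binding EGF-like growth factor (Hbegf, ENSMUSG00000024486.6, chromosome 18, 36504927 to 36515805, - strand) measured 0.926 and 0.582 CPM in NTC-Veh livers, 0.888 and 0.823 in sgBap1-Veh, 3.30, 2.09 and 4.50 in NTC-CCl4 livers, and 4.72, 4.52 and 3.57 in sgBap1-CCl4 livers. The lowest CCl4 liver was still above the highest vehicle liver. The log2 fold change with CCl4 was 2.12 in NTC (SE 0.35, adjusted p = 0.000562) and 2.31 in sgBap1 livers (SE 0.35, adjusted p = 0.000302).

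Transforming growth factor alpha (Tgfa, ENSMUSG00000029999.14, chromosome 6, 86195223 to 86275719, + strand), a hepatocyte mitogen, overlaps Gm43917 on the other strand. It measured 20.4 and 22.7 CPM in NTC-Veh livers, 17.7 and 17.5 in sgBap1-Veh, 27.7, 28.0 and 32.5 in NTC-CCl4 livers, and 28.7, 26.9 and 29.5 in sgBap1-CCl4 livers. Its groups did not overlap between CCl4 and vehicle, and its estimated rise was the smallest of the 5 ligands. The log2 fold change was 0.45 in NTC (SE 0.10, adjusted p = 0.00277) and 0.69 in sgBap1 livers (SE 0.10, adjusted p = 0.000180).

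Per kilobase of annotated exon, Tgfa held most of the summed transcripts of these 5 EGF-family ligands in every vehicle liver. It made up 82.7% ± 1.56 of the summed CPM per kb of the 5 ligands in the NTC-Veh group and 81.2% ± 0.354 in the sgBap1-Veh group (SD, n = 2 each). With CCl4 its share was 55.2% ± 3.35 in NTC and 53.0% ± 3.75 in sgBap1 livers (SD, n = 3 each). The sum of the 5 ligands was 4.01 ± 0.219 CPM per kb in NTC-Veh, 3.34 ± 0.0354 in sgBap1-Veh, 8.20 ± 0.416 in NTC-CCl4 livers and 8.27 ± 0.206 in the sgBap1-CCl4 group. Btc made up 21.5% ± 5.52 of the sum in the NTC-CCl4 group and 14.0% ± 1.32 in the sgBap1-CCl4 group, and Ereg 11.3% ± 1.89 and 17.0% ± 4.31. The share of Ereg was 15.3%, 21.9% and 13.8% in the sgBap1-CCl4 livers and at most 13.1% with the control guide. The 21.9% was that of the liver with fat-cell transcripts. The shares of Btc overlapped, at 24.1%, 25.3% and 15.2% in NTC-CCl4 and 13.7%, 12.8% and 15.4% in sgBap1-CCl4 livers. These shares are descriptions, with no test, and other EGF-family ligands are not in the sums. Among those, Nrg4 had a higher CPM, not divided by length, than Tgfa in both sgBap1-Veh livers. In both NTC-Veh livers its CPM was lower than that of Tgfa.

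**Figure D2:**
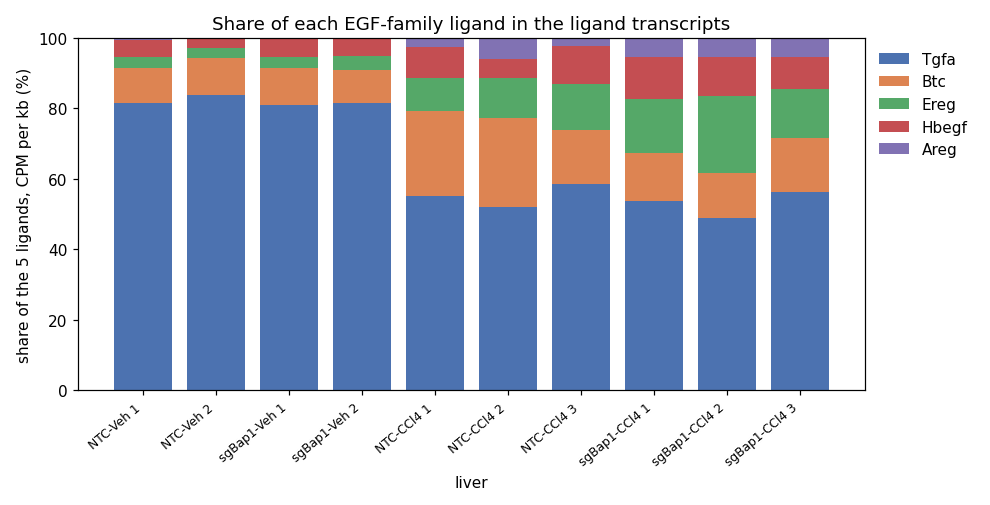
Share of each of the 5 EGF-family ligands in their summed CPM per kb (y axis, %) in each of the 10 livers (x axis), as stacked bars. Tgfa fills 81.0% to 83.8% of the bar in the 4 vehicle livers and 48.9% to 58.6% in the 6 CCl4 livers.

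Hgf (ENSMUSG00000028864.7, chromosome 5, 16553495 to 16620152, + strand) encodes the ligand of MET. It measured 8.06 and 7.40 CPM in NTC-Veh livers, 8.96 and 7.26 in sgBap1-Veh, 24.9, 31.3 and 25.2 in NTC-CCl4 livers, and 29.9, 38.5 and 23.3 in sgBap1-CCl4 livers. All 6 CCl4 livers lay above all 4 vehicle livers, and the liver with fat-cell transcripts had the highest value. The log2 fold change with CCl4 was 1.81 in NTC (SE 0.21, adjusted p = 7.08e-05), a fold of 3.51. In sgBap1 livers it was 1.91 (SE 0.21, adjusted p = 4.97e-05), and 1.71 without the liver with fat-cell transcripts. Hgf overlaps Gm43489 and Gm42975 on its own strand and shares 6.02% of its stretches of 50 bases with Gm43489, so its counts are uncertain to that extent.

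Egfr (ENSMUSG00000020122.16, chromosome 11, 16752203 to 16918158, + strand), the receptor of all 5 EGF-family ligands measured here, overlaps Egfros on the other strand. It measured 652 and 369 CPM in NTC-Veh livers, 351 and 485 in sgBap1-Veh, 282, 305 and 379 in NTC-CCl4 livers, and 363, 254 and 413 in sgBap1-CCl4 livers. The NTC-Veh livers lay far apart, and 1 of them was within the range of the CCl4 livers. The log2 fold change with CCl4 was -0.66 in NTC livers (SE 0.27, 95% interval -1.28 to -0.05, adjusted p = 0.0646). Leaving out NTC-Veh replicate 1 gave -0.20 (adjusted p = 0.618) and leaving out replicate 2 gave -1.01 (adjusted p = 0.0171). The call also appeared without the sgBap1-CCl4 liver with fat-cell transcripts (adjusted p = 0.0461), with the same log2 fold change. In sgBap1 livers the value was -0.28 (SE 0.27, 95% interval -0.90 to 0.33, adjusted p = 0.405), and -0.11 without the liver with fat-cell transcripts. Leaving out single livers moved it between -0.49 and -0.03. With libraries scaled by their size alone it was 0.19, where the median of all genes was 0.52 in place of 0.04.

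Erbb3 (ENSMUSG00000018166.8, chromosome 10, 128567523 to 128589652, - strand), a neuregulin receptor with little kinase activity, overlaps Mir6917 on its own strand. It measured 157 and 194 CPM in NTC-Veh livers, 154 and 128 in sgBap1-Veh, 97.5, 64.0 and 78.9 in NTC-CCl4 livers, and 59.7, 45.3 and 69.1 in sgBap1-CCl4 livers. Every CCl4 liver lay below every vehicle liver. Erbb3 fell with CCl4 by 1.13 on the log2 scale in NTC (SE 0.21, adjusted p = 0.00117) and by 1.28 in sgBap1 livers (SE 0.21, adjusted p = 0.000528).

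Erbb2 (ENSMUSG00000062312.5, chromosome 11, 98412470 to 98437716, + strand) overlaps Gm25048 and Mien1 on the other strand. It measured 1.03 and 1.22 CPM in NTC-Veh livers, 1.61 and 1.42 in sgBap1-Veh, 1.77, 2.14 and 2.11 in NTC-CCl4 livers, and 2.11, 2.64 and 2.19 in sgBap1-CCl4 livers. CCl4 and vehicle livers did not overlap. The log2 fold change with CCl4 was 0.83 in NTC livers (SE 0.22, adjusted p = 0.00904), and 0.72 without NTC-Veh replicate 1 (adjusted p = 0.0684). In sgBap1 livers it was 0.60 (SE 0.22, adjusted p = 0.0352). That call was lost without the liver with fat-cell transcripts (0.50, adjusted p = 0.102), without sgBap1-CCl4 replicate 3 (0.63, adjusted p = 0.0525) and without either sgBap1-Veh liver (0.70, adjusted p = 0.0741, and 0.52, adjusted p = 0.162). DESeq2's Wald test did not call it either (adjusted p = 0.0508).

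Met (ENSMUSG00000009376.15, chromosome 6, 17463800 to 17573980, + strand), the HGF receptor, measured 78.6 and 84.4 CPM in NTC-Veh livers, 68.7 and 74.1 in sgBap1-Veh, 61.3, 53.2 and 64.6 in NTC-CCl4 livers, and 56.1, 50.8 and 45.9 in sgBap1-CCl4 livers. The highest CCl4 liver lay just below the lowest vehicle liver. Met fell with CCl4 by 0.45 on the log2 scale in NTC (SE 0.11, adjusted p = 0.00529) and by 0.49 in sgBap1 livers (SE 0.11, adjusted p = 0.00315). It stayed lower, and called, in both guides with DESeq2 size factors, with DESeq2's Wald test and with limma-voom. With libraries scaled by their size alone, the median over all genes of the log2 fold change with CCl4 moved to 0.50 in NTC and 0.52 in sgBap1 livers, 80.7% and 78.5% of the calls were higher in place of 51.1% and 51.2%, and Met was at 0.02 (adjusted p = 0.882) and 0.00, still below those medians. The 7 genes that rose, and Erbb3, kept their direction and call in both guides under that scaling.

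Ordered by CPM per kb in NTC-Veh livers, the 10 transcripts were Egfr (45.1 ± 17.6), Erbb3 (29.2 ± 4.39), Met (10.6 ± 0.527), Tgfa (3.32 ± 0.245), Hgf (1.08 ± 0.0649), Btc (0.410 ± 0.0352), Erbb2 (0.216 ± 0.0251), Hbegf (0.156 ± 0.0503), Ereg (0.116 ± 0.00616) and Areg (0.0112 ± 0.0158; SD, n = 2). Only the neighbours Hbegf and Ereg overlapped between livers in that group. Egfr, Erbb3, Met and Tgfa came first, in that order, in all 4 groups. In NTC-CCl4 livers Tgfa (4.53 ± 0.413) and Hgf (3.77 ± 0.504) overlapped, as did Ereg (0.932 ± 0.198) and Hbegf (0.682 ± 0.250), and Erbb2 (0.385 ± 0.0395) and Areg (0.299 ± 0.183; SD, n = 3). In sgBap1-CCl4 livers Tgfa (4.37 ± 0.202) and Hgf (4.25 ± 1.06) overlapped, and Ereg (1.41 ± 0.397) and Btc (1.15 ± 0.0803) did too. Egfr was far above Erbb2 in every liver, and Erbb2 made up at most 1.66% of the summed CPM per kb of Egfr, Erbb2 and Erbb3.

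In vehicle-treated livers, 0 of the 10 genes were called changed by the Bap1 guide, by edgeR or by DESeq2's Wald test, and 1, Tgfa, had an unadjusted p under 0.05. DESeq2 gave no adjusted p for Areg. Of all genes, 0.523% were called and 12.6% had an unadjusted p under 0.05. DESeq2 called 3.74% of the 15007 genes to which it gave an adjusted p. The median log2 fold change was -0.24 over the 10 genes and 0.02 over all genes. Tgfa was lower in both sgBap1-Veh livers than in both NTC-Veh livers, with a log2 fold change of -0.29 (SE 0.11, 95% interval -0.53 to -0.06, edgeR adjusted p = 0.271). Groups also did not overlap for Btc (-0.31, 95% interval -0.87 to 0.24), Erbb3 (-0.32, -0.83 to 0.19) and Met (-0.19, -0.46 to 0.07), which were lower, and Erbb2 (0.43, -0.11 to 0.97), which was higher. That is 5 of 10, and 40.9% of all genes did not overlap between these groups of 2. For Ereg (0.03, 95% interval -0.84 to 0.89), Hbegf (0.18, -0.70 to 1.07), Hgf (0.07, -0.44 to 0.59) and Egfr (-0.29, -0.97 to 0.39), the intervals reached far to both sides of 0. Areg had 1 count in all 4 vehicle livers, under the floor, so no direction is read from it. Its fitted value of -2.54, which depends on the prior count, is nevertheless among the values behind the median of the 10 genes.

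In CCl4-treated livers, 0 of the 10 genes were called changed by the Bap1 guide with either tool, and DESeq2 gave no adjusted p for Areg. Unadjusted p-values were under 0.05 for 4 genes. Of all genes, 0.253% were called and 13.4% had an unadjusted p under 0.05. DESeq2 called 3.39% of the 15007 genes to which it gave an adjusted p. The median log2 fold change was 0.13 over the 10 genes and 0.00 over all genes. Btc was the one gene whose groups did not overlap, as was the case for 20.3% of all genes. Its mean was 7.94 ± 1.85 CPM in the NTC-CCl4 group and 5.21 ± 0.363 in the sgBap1-CCl4 group (SD, n = 3 each), with a log2 fold change of -0.61 (SE 0.18) and a 95% interval that ended at -0.22. Its adjusted p was 0.171 with edgeR and 0.0620 with DESeq2. Without the liver with fat-cell transcripts the value was -0.57 (adjusted p = 0.375).

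Ereg had the opposite sign, with 3.85 ± 0.815 CPM in the NTC-CCl4 group and 5.82 ± 1.64 in the sgBap1-CCl4 group (SD, n = 3 each) and a log2 fold change of 0.60 (SE 0.23, 95% interval 0.09 to 1.11, adjusted p = 0.292). Without the liver with fat-cell transcripts it was 0.35 (adjusted p = 0.643). Erbb3 had -0.47 (95% interval -0.88 to -0.05, adjusted p = 0.324), and -0.31 without that liver. Met had -0.23 (95% interval -0.45 to -0.01, adjusted p = 0.346), and -0.23 without it. The intervals of the other 6 genes included 0. They were -0.47 to 1.60 for Areg, -0.22 to 0.98 for Hbegf, -0.24 to 0.14 for Tgfa, -0.21 to 0.56 for Hgf, -0.46 to 0.65 for Egfr and -0.21 to 0.62 for Erbb2. Without the liver with fat-cell transcripts, Tgfa was at -0.01 in place of -0.05, Hgf at -0.03 in place of 0.17, Egfr at 0.27 in place of 0.09 and Erbb2 at 0.10 in place of 0.21.

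The interaction, which is the log2 fold change with CCl4 in sgBap1 minus that in NTC livers, was called for 0 of the 10 genes by edgeR or DESeq2, and 0 had an unadjusted p under 0.05. Areg had no adjusted p from DESeq2 here either. EdgeR called 0% of all genes, with 10.6% at an unadjusted p under 0.05 and a smallest adjusted p of 0.0662. DESeq2 called 2.95% of the 14353 genes to which it gave an adjusted p. The smallest adjusted p among the 10 was that of Tgfa, at 0.581, for an interaction of 0.24 (SE 0.14, 95% interval -0.06 to 0.54). Ereg had 0.57 (95% interval -0.43 to 1.58; 0.32 without the liver with fat-cell transcripts) and Egfr 0.38 (-0.49 to 1.26). Btc had -0.30 (95% interval -0.98 to 0.38) and Erbb2 -0.23 (-0.91 to 0.45). Met had an interval of -0.38 to 0.30. Without the liver with fat-cell transcripts Hgf had -0.10 in place of 0.10 and Erbb3 0.00 in place of -0.15.

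**Figure D3:**
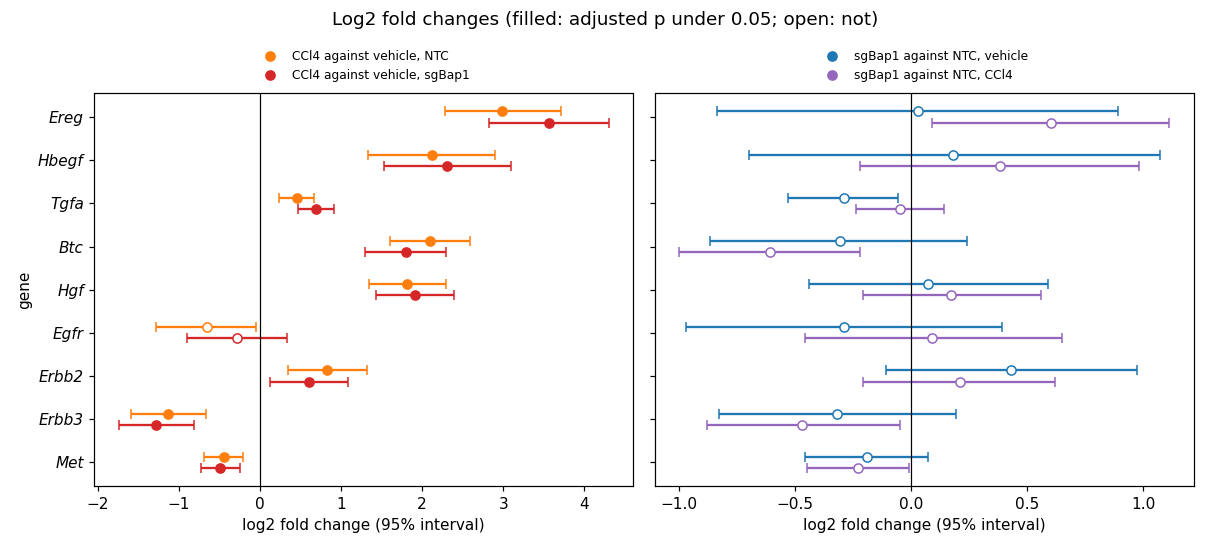
Log2 fold changes (x axis) of 9 of the 10 genes (y axis; Areg is left out because it is at the floor in vehicle livers) for CCl4 against vehicle (left) and sgBap1 against NTC (right); bars are 95% intervals, filled points have an adjusted p under 0.05. Only points of the left panel are filled, and those of Egfr are open in both.

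Other genes of the pathways were read from lists of 6 kinds. The counts of called genes in them with CCl4 stand against 53.8% of all genes called in NTC livers (27.5% higher, 26.3% lower) and 56.7% in sgBap1 livers (29.0% higher, 27.7% lower). Of 7 further EGF-family genes, 4 were tested, and with CCl4 1 rose and 2 fell in each guide, so that 3 of 4 were called. CCl4 raised Nrg1, which encodes a ligand of ERBB3 and ERBB4, and lowered Erbb4, in both guides. Egf fell by 0.75 on the log2 scale in NTC livers (SE 0.25, adjusted p = 0.0265, against -0.46 with adjusted p = 0.163 in sgBap1 livers), and the difference between guides was not called. Nrg1 went from 1.03 to 11.4 CPM in NTC livers (log2 fold change 3.46, SE 0.23) and from 0.808 to 14.1 in sgBap1 livers (4.10, SE 0.24). Erbb4 went from 4.35 to 1.60 CPM in NTC (-1.44, SE 0.29) and from 4.75 to 0.998 in sgBap1 livers (-2.25, SE 0.29). The second gene that fell in sgBap1 livers was Nrg4, another ERBB4 ligand (-0.57, SE 0.19, adjusted p = 0.0266). It measured 12.2 and 12.2 CPM in the NTC-Veh livers against 18.5 and 27.8 in sgBap1-Veh, a log2 fold change of 0.92 (SE 0.21) for the guide. Its adjusted p was 0.101 with edgeR and 0.00592 with DESeq2.

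Of 6 genes of ligand shedding, 5 were tested, and all 5 were higher with CCl4 in NTC livers, and 4 of 5 in sgBap1 livers (27.5% and 29.0% of all genes were), with median log2 fold changes of 1.06 and 1.08. Rhbdf1 and Rhbdf2 encode iRhom proteins, partners of the sheddase ADAM17. Rhbdf1 had 1.41 (SE 0.11) in NTC and 1.52 (SE 0.11) in sgBap1 livers, and Rhbdf2 had 1.25 (SE 0.15) and 1.28 (SE 0.15). The list also holds an inhibitor of sheddases, Timp3, which rose in NTC livers (0.82, SE 0.17) and had 0.37 (SE 0.17) in sgBap1 livers.

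Among 8 genes of HGF activation, 4 rose and 2 fell in each guide, beside 53.8% and 56.7% of all genes called. The genes that fell encode hepatocyte proteases that cleave pro-HGF. Hgfac fell by 1.57 on the log2 scale in NTC (SE 0.16) and by 2.06 in sgBap1 livers (SE 0.16), and Hpn by 1.08 (SE 0.14) and 1.14 (SE 0.14). The urokinase gene Plau rose, from 1.58 and 1.72 CPM in NTC-Veh to 19.3, 21.8 and 24.9 in NTC-CCl4 livers. In sgBap1 livers Plau had 2.80 and 2.84 CPM with vehicle and 17.0, 20.4 and 15.3 with CCl4. Its receptor gene Plaur had log2 fold changes of 4.77 (SE 0.25) and 4.90 (SE 0.25). Plat, the tissue plasminogen activator gene, had 3.63 (SE 0.56) and 3.98 (SE 0.58). Spint1, a protease inhibitor gene, had 1.26 (SE 0.40) and 1.15 (SE 0.40), and its call in sgBap1 livers was lost without the liver with fat-cell transcripts.

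Of 22 genes of signal relay, 10 rose and 5 fell with CCl4 in NTC livers and 11 rose and 6 fell in sgBap1 livers, with medians of 0.16 and 0.15, beside 53.8% and 56.7% of all genes called. Without NTC-Veh replicate 2, 9 in place of 15 were called in NTC livers. The adaptor gene Gab2 (1.83, SE 0.20, and 1.59, SE 0.20) and the kinase gene Src (1.69, SE 0.26, and 1.61, SE 0.26) had the largest rises, and Plcg1 was lower (-0.78, SE 0.08, and -0.84, SE 0.08).

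Of 19 tested feedback inhibitors (20 listed), 11 rose and 2 fell in NTC livers and 13 rose and 2 fell in sgBap1 livers, with medians of 0.64 and 0.66, beside 27.5% and 29.0% of all genes higher. The ERK phosphatase genes Dusp4 (3.06, SE 0.36, and 4.08, SE 0.38) and Dusp5 (3.38, SE 0.31, and 3.44, SE 0.31) had the largest rises. The EGFR inhibitor gene Errfi1 fell in both guides, by 1.09 (SE 0.15) and 0.79 (SE 0.15) on the log2 scale, and Lrig3 by 1.33 (SE 0.17) and 0.92 (SE 0.17). In NTC-Veh livers Errfi1 stood at 1768 and 1429 CPM, and in NTC-CCl4 livers at 824, 685 and 742.

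Of 16 ERK-responsive genes, 13 rose and 1 fell in NTC livers and 14 rose and 1 fell in sgBap1 livers, with medians of 1.75 and 2.80, beside 27.5% and 29.0% of all genes higher. The gene that fell was Phlda1 (-1.40, SE 0.31, and -1.02, SE 0.31), whose call in sgBap1 livers was lost without the liver with fat-cell transcripts. Fosl1 had 2, 0, 0 and 0 counts in the 4 vehicle livers and 2.79, 7.98 and 6.71 CPM in NTC-CCl4 and 12.6, 13.0 and 8.03 CPM in the sgBap1-CCl4 group. Like Areg, it passed the filter only through the CCl4 livers and could only be called higher with CCl4. In NTC livers the 814 counts with CCl4 against 2 with vehicle gave a ratio of 214, with a 95% counting interval of 59.0 to 1769. In sgBap1 livers the level with CCl4 was at least 243-fold higher than the floor over the vehicle group, with a lower 95% counting limit of 198, and both medians are the same with Fosl1 at its floor-based bound. Fosb (7, 6, 13 and 1 counts in the vehicle livers) and Etv4 (16, 4, 4 and 4) also passed the filter only through the CCl4 livers. They too could only be called higher with CCl4, and they count among the genes that rose and in the medians.

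For the Bap1 guide, edgeR called 0 of the 74 tested genes of the 6 lists in vehicle-treated or CCl4-treated livers, and 0 for the interaction. Unadjusted p-values were under 0.05 for 14, 24 and 11 of them, and DESeq2 called 5, 8 and 4. Over all genes to which DESeq2 gave an adjusted p, it called 3.74%, 3.39% and 2.95%. In the ERK-responsive list, unadjusted p-values were under 0.05 for 6 of 16 with vehicle (12.6% of all genes), 9 of 16 with CCl4 (13.4% of all genes) and 8 of 16 for the interaction (10.6% of all genes). With CCl4 all 9 were higher in sgBap1 livers, and DESeq2 called 8 of the 16, against 3.39% of the genes to which it gave an adjusted p. Klf6, Ier3 and Egr1, immediate early genes, are named after their values were seen. Klf6 averaged 51.5 CPM in the NTC-CCl4 group and 94.0 in the sgBap1-CCl4 group (log2 fold change 0.87, SE 0.15, adjusted p = 0.0524 with edgeR and 2.13e-05 with DESeq2). Ier3 measured 13.0 and 20.6 CPM (0.67, SE 0.12, adjusted p = 0.0524 and 0.000944). Egr1 had 80.5, 58.0 and 76.3 CPM in NTC-CCl4 livers against 161, 114 and 140 in sgBap1-CCl4, while its vehicle values were 27.4 and 19.6 in NTC and 10.4 and 17.3 in sgBap1 livers. Its interaction was 1.72 (SE 0.36, adjusted p = 0.117 with edgeR and 0.000253 with DESeq2).

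**Figure D4:**
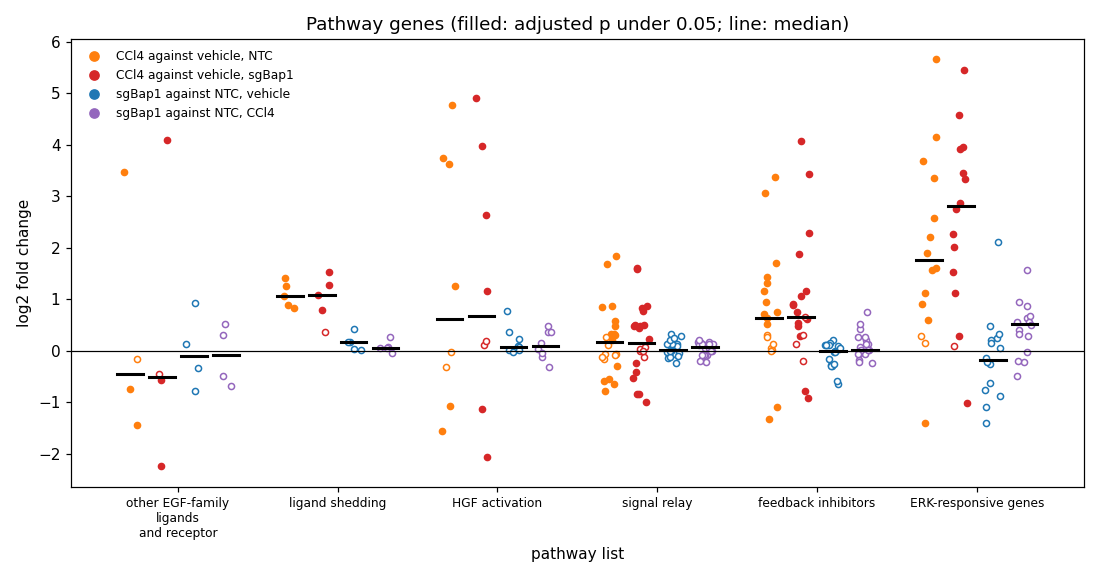
Log2 fold changes (y axis) of the tested genes of 6 pathway lists (x axis) in 4 comparisons; filled points have an adjusted p under 0.05, open points do not, and lines are medians over all tested genes of a list. Fosl1, at the floor in vehicle livers, is not drawn; the median of the ERK-responsive genes is 1.75 in NTC and 2.80 in sgBap1 livers for CCl4 and 0.52 for sgBap1 against NTC with CCl4.

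Cell type markers moved with CCl4 beside these genes, and the counts of called markers stand against the shares of all genes. With CCl4, 53.8% of all genes were called in NTC livers (27.5% higher, 26.3% lower). In sgBap1 livers 56.7% were called (29.0% higher, 27.7% lower). The 8 hepatocyte markers summed to 114538 to 158008 CPM in vehicle and 64846 to 82906 in CCl4 livers, and 7 of 8 in NTC and 4 of 8 in sgBap1 livers were called lower. The 7 pericentral hepatocyte markers summed to 10795 to 14374 and 563 to 975 CPM, with 7 of 7 and 6 of 7 lower. The 9 stellate cell and fibroblast markers summed to 139 to 196 CPM in vehicle and 380 to 1268 in CCl4 livers, with 6 of 9 higher and 2 lower (Colec11 and Hand2) in NTC livers and 5 of 9 higher and 1 lower (Colec11) in sgBap1 livers. The liver with fat-cell transcripts had the 1268 CPM, and the other CCl4 livers at most 577. The 9 monocyte and recruited macrophage markers summed to 65.5 to 90.0 and 430 to 727 CPM, with 9 of 9 and 8 of 9 higher. Spp1 is among them and also among the cholangiocyte markers, so both sums hold it. The 6 neutrophil markers summed to 5.76 to 12.0 and 27.9 to 39.1 CPM, with the 5 tested ones higher in each guide. The 6 cholangiocyte markers summed to 43.2 to 51.5 and 192 to 370, of which Spp1 made up most (means of 41.2 and 199 CPM in NTC, 39.8 and 316 in sgBap1 livers). Only Spp1 and Sox9 of them were called, both higher in each guide, and Krt19, Krt7, Epcam and Cftr were not. Sums of the 7 sinusoidal endothelial markers were 164 to 239 and 220 to 266 CPM, and those of the 7 T, NK and innate lymphoid cell markers 1.88 to 6.32 and 6.72 to 9.65. Of the endothelial markers, 4 were higher in NTC livers, and 3 were higher and 2 lower in sgBap1 livers, and 1 T, NK and innate lymphoid marker was higher in each guide. The 5 Kupffer cell markers summed to 153 to 492 and 411 to 837 CPM. In NTC livers Marco and Cd5l were called higher, and in sgBap1 livers Marco was called higher and Clec4f (-1.29) and Timd4 (-1.13) lower, with a median of -0.56 over the 5. The 4 basophil and mast cell markers summed to at most 0.573 CPM. The 6 adipocyte markers summed to at most 2.21 CPM in vehicle livers and to 8.14 to 290 in CCl4 livers (at most 15.4 without the liver with fat-cell transcripts). Outside that liver nearly all of the sum was Cidec, so the rise there was not one of the markers as a set. Adipoq was at most 0.0425 CPM and Plin1 at most 0.0188 CPM in those livers. Only Cidec of the 6 was tested, and it was called higher with CCl4 in each guide. The 5 mesothelial markers summed to 0.490 to 14.6 and 4.01 to 18.0 CPM (at most 13.5 without that liver), with 0 called by edgeR. For the Bap1 guide edgeR called 0 of the 67 tested markers with vehicle, with CCl4 or for the interaction, and 15, 8 and 15 had an unadjusted p under 0.05. Of all genes, 12.6%, 13.4% and 10.6% had an unadjusted p under 0.05 in these comparisons. DESeq2 called 3.74%, 3.39% and 2.95% of the genes to which it gave an adjusted p. Of the markers, DESeq2 called 7 with vehicle (Clec4f, Vsig4, Cd5l, Ccr2, Ly6c2, Adgre1 and Cd68, all higher in sgBap1 livers), 5 with CCl4 (Ass1, Lgr5 and Spp1 higher, Cyp2f2 and Axin2 lower) and 5 for the interaction. Kupffer cell markers summed to 153 to 257 CPM in the NTC-Veh group and 321 to 492 in the sgBap1-Veh group. The part of these cell types in the growth factor results was not tested.

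For the 9 genes called with CCl4, the genes outside the 10 with the most similar pattern were found by the root mean square difference of mean-centred log2 CPM over the 10 livers. The closest patterns were those of Zfp398 to Met (0.0496), of Manba to Tgfa (0.0680) and of Emilin1 to Hgf (0.0809). Those of Rhog to Erbb2 (0.115), Sh3yl1 to Erbb3 (0.142), Rin1 to Ereg (0.174) and Creld2 to Hbegf (0.194) came next. Cdca7 to Btc (0.251) and Adm2 to Areg (0.274) were the least close.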

How the data were processed

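Per the labels, polyA RNA was extracted from fresh-frozen livers and made into stranded mRNA libraries. The authors aligned paired reads of 50 bases to GRCm38 with STAR 2.7.6a and quantified genes with Salmon 1.4.0 on GENCODE vM25. The deposited values are estimated counts (expected counts) per gene symbol without normalization, and 9.22% of them are not whole. Counts were rounded and tested with edgeR 4.0.16 in R 4.3.3 (filterByExpr, TMM, glmQLFit with robust = TRUE, one model of 4 groups). CPM use the TMM-normalized library, fold changes edgeR's default prior count, and 95% intervals the t distribution of the fit. A prior count of 2 went into the log2 CPM used to compare patterns and same-numbered livers. Lengths, positions and overlaps are those of GENCODE vM21 rather than vM25, and the library type set in Salmon is not given in the sources used here. Each liver was taken as a replicate as numbered in the labels, and no batch is named there. The members and lists were chosen with earlier results of these data known. Genes were named if they were members, were called in a list for the Bap1 guide or the interaction, or had the 2 largest called changes of a list in each direction with CCl4, or were nearest in pattern, and not all are printed. Alternatives were DESeq2 size factors, library size alone, no filter beyond 1 count, a minimum mean of 10 counts, DESeq2 1.42.0, limma-voom (limma 3.58.1), a replicate block, a fit of only the 2 groups in question, and leaving out each mouse. Counts of list genes under these settings, and without the liver with fat-cell transcripts, were added after seeing the data. The script was tested on simulated data.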

Additional observations from a re-analysis of the deposited data

Results flagged for a closer look

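Areg was marked for a closer look because the sgBap1 livers lay below the NTC mean with vehicle and above it with CCl4. With vehicle this is 1 count against 0 over 4 livers, under the floor of 3 counts, so no direction can be read there. The fitted log2 values of sgBap1 against NTC, -2.54 with vehicle and 0.56 with CCl4, depend on the prior count, and their difference was 3.11 (SE 2.33, edgeR adjusted p = 0.713).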

How the results depend on the processing

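Counts of the 10 genes called stayed within 1.5 times the reported ones under every setting tried. They were 8 to 10 for CCl4 in NTC livers, 8 or 9 in sgBap1 livers, and 0 for the Bap1 guide and the interaction. With a replicate block, 10 were called for CCl4 in NTC, 8 in sgBap1 livers and 0 for the rest. Same-numbered livers showed little shared deviation from their group means (13 correlations of -0.15 to 0.10). In groups of 2 livers the deviations mirror each other, so these correlations are not independent and cannot exclude a pairing. Over all genes, the Bap1 guide gave 89 calls with vehicle (1 with the block, 562 with DESeq2's Wald test), 43 with CCl4 (3 and 509) and 0 for the interaction (0 and 424). Areg, at or under 3 counts in the vehicle livers, is limited by depth. Scaled by library size alone, Met for CCl4 in NTC livers turned from -0.45 to 0.02 and Egfr in sgBap1 livers from -0.28 to 0.19, a shift shared by all genes, whose medians moved to 0.50 and 0.52.

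Leaving out each mouse in turn changed the sign of values that were not called. For the guide with vehicle the ranges were -0.16 to 0.22 for Ereg, -0.11 to 0.55 for Hbegf, -0.09 to 0.21 for Hgf and -0.64 to 0.17 for Egfr. With CCl4 they were -0.09 to 0.03 for Tgfa, -0.03 to 0.32 for Hgf and -0.07 to 0.27 for Egfr. For the interaction they were -0.18 to 0.49 for Hbegf, -0.10 to 0.27 for Hgf, -0.08 to 0.73 for Egfr, -0.31 to 0.02 for Erbb3 and -0.12 to 0.02 for Met. Of the pathway lists, signal relay had 9 to 15 calls for CCl4 in NTC livers and the ERK-responsive genes 0 to 1 for the guide with CCl4.

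In the lists, where edgeR called 0 for the guide and the interaction, DESeq2's Wald test called 1 further EGF-family gene, 1 gene of HGF activation and 3 ERK-responsive genes with vehicle, 8 ERK-responsive genes with CCl4, and 1 gene of HGF activation and 3 ERK-responsive genes for the interaction. Without a filter beyond 1 count, the ERK-responsive genes had 1 call with vehicle, 2 with CCl4 and 1 for the interaction, and HGF activation had 1 for the interaction. Limma-voom called 2 ERK-responsive genes with CCl4. The causes were not tested.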
